A study of Homo sapiens with 17 samples.

Results

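The 10 genes described here encode proteins of the cell's antiviral response, and were CCL5, CXCL10, DDX58, IFIH1, IFIT1, IFIT2, IFIT3, RSAD2, HERC5 and IFI44, 10 of the 23368 genes in the count table. They were chosen by name, and with their levels in the input RNA already known, since most were high in the libraries labelled WT and low or absent in those labelled siTDP43. Their input levels are therefore given as a description without a test. The libraries came from HEK293T cells, a human embryonic kidney line, and held poly(A) RNA measured by acetylated RNA immunoprecipitation sequencing (acRIP-seq), which recovers RNA bearing the modified base N4-acetylcytidine (ac4C). One genotype was labelled WT, with no siRNA named, and the other siTDP43, for siRNA against TDP43, the RNA-binding protein product of TARDBP. From each genotype came input libraries (no antibody), IP libraries (antibody to ac4C) and IgG libraries (control immunoglobulin), 17 in all, with 2 in WT IgG and 3 in each of the other 5 groups. Because the WT label names no control siRNA and each genotype may have been a batch of its own, knockdown, transfection and batch cannot be told apart in any comparison of WT with siTDP43.

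In the antiviral response, RNA sensors in the cytoplasm recognise foreign RNA and signal through MAVS and TBK1 to the transcription factors IRF3 and NF-kB, which switch on type I interferon, chemokines and a first set of antiviral genes. Secreted interferon then acts through its receptor on transcription factors that bind the interferon-stimulated response element (ISRE) in the promoters of a wider set. Several of the genes described here, among them IFIT1, IFIT2, IFIT3, RSAD2, CXCL10 and CCL5, can be switched on by IRF3 directly as well as by interferon.

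The sequences upstream of the genes are shown first because most of them share the ISRE. The RefSeq promoter table (GRCh38.p14, 250 bases before to 50 bases after each start site) held 8 of the 10 genes in 11 entries, with DDX58 under its current symbol RIGI. CCL5 and IFIT2 were not matched. The ISRE was searched as GAAANNGAAA and, for the other strand, TTTCNNTTTC, with overlapping matches allowed. It was found in 7 of the 8 genes and in 9 of the 11 entries, against 3.57% of all 35116 entries and 4.38% of all 27305 genes in the table. The genes were chosen by name from a response that works through this element, so these shares are a description. A motif named NF-kB was found in 1 of the 8 genes, CXCL10, with 2 matches, against 9.98% of all genes. The stretches below lie upstream of the start site, read 5′ to 3′ on the strand of the gene, and show the matches in capitals. In CXCL10 the first run of capitals is the ISRE and the other runs are the NF-kB motif, and elsewhere all capitals mark the ISRE, of which adjoining matches run together.

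CXCL10 promoter, chr4:76023596-76023735, minus strand: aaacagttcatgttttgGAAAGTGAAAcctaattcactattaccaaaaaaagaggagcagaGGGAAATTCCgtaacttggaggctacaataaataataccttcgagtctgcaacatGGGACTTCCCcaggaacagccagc
RSAD2 promoter, chr2:6877587-6877686, plus strand: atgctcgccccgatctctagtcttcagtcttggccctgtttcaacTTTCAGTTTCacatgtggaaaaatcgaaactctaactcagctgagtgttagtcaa
IFI44 promoter, chr1:78649689-78649788, plus strand: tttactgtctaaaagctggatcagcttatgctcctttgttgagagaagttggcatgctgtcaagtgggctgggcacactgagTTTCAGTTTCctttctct
IFIT3 promoter, chr10:89327813-89327912, plus strand: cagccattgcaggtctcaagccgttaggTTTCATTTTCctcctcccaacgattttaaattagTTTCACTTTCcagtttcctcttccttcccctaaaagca
IFIT1 promoter, chr10:89392469-89392568, plus strand: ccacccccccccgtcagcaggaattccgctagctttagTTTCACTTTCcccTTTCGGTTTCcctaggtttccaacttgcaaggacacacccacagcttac
HERC5 promoter, chr4:88456968-88457067, plus strand: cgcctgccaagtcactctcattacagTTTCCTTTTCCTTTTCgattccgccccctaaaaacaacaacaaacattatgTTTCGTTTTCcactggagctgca
IFIH1 promoter, chr2:162318786-162318885, minus strand: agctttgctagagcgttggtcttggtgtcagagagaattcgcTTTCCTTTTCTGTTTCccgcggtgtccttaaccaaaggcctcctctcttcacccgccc

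The first ISRE match began 221 bases before the start site in CXCL10, 145 in RSAD2, 18 in IFI44, 156 in IFIT3, 116 in IFIT1, 125 in HERC5 and 159 in IFIH1. IFIH1 and HERC5 had 3 matches each, IFIT1 had 2, IFIT3 had 2 in each of its 2 entries, and CXCL10, RSAD2 and IFI44 had 1 in the entry shown. The IFIH1 stretch above holds 2 of its 3 matches, and the other, 21 bases before the start site, lies outside it. The other entry of RSAD2 and the single entry of DDX58 held none. A match describes the letters in the window only, and carries no measurement of binding. The genes with a match included CXCL10, RSAD2 and IFI44, which had no count in siTDP43 input, as well as HERC5 and IFIH1, which had 412 to 554 and 56 to 117 counts there.

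The libraries differed in depth, which sets how low a level could be seen. The input libraries held 24542434 to 36583436 counts each, the WT IP libraries 19615316 to 21066215 and the siTDP43 IP libraries 8610070 to 15736165. The IgG libraries were the shallowest, at 9022250 to 9466855 counts for WT and 3013989 to 3436811 for siTDP43. A count of 0 was set at a limit of 3 counts. In CPM, the usual depth-normalised count, here by the library's total, this limit is 0.0967 to 0.122 in siTDP43 input. In siTDP43 IgG it is 0.873 to 0.995. If both mates of a pair were counted, 3 read pairs would be 6 counts. The bounds below use 3 counts and would be lower at 6. These limits cover counting error only, as no molecular identifiers were used. TARDBP, the target of the siRNA, averaged 165 ± 3.06 CPM (SD, n = 3) over the WT inputs and 104 ± 3.14 CPM (SD, n = 3) over the siTDP43 inputs (log2 change -0.57, SE 0.045, edgeR adjusted p 6.55e-13). Of 6 genes fixed as markers of HEK293T cells, 4 were over 1 CPM in both inputs, with a summed level of 205 to 216 CPM in WT and 326 to 344 CPM in siTDP43, while PAX2 and LHX1 were under 1 CPM. Of 7 blood cell markers, PTPRC and MS4A1 had no count in any input library, and the sum was 9.63 to 11.6 CPM in WT and 8.19 to 8.80 CPM in siTDP43. Of 3 endothelial markers none was over 1 CPM. Of 4 fibroblast markers 3 were over 1 CPM in both inputs, with a sum of 12.5 to 13.3 CPM in WT and 4.36 to 5.51 CPM in siTDP43, and the part of such cells in the results was not tested.

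The 10 genes together took 1467 to 1496 CPM in WT input and 45.9 to 46.8 CPM in siTDP43 input. In the pull-downs they took 600.4 to 617 CPM in WT IP and 685 to 712 CPM in WT IgG, but 21.5 to 24.0 CPM in siTDP43 IP and 5.97 to 12.6 CPM in siTDP43 IgG. Each of the 10 was higher in every WT input library than in every siTDP43 input library. Of all 14036 genes tested between the inputs, 40.6% were lower in siTDP43, and nothing is read from the count of 10 of 10 since the genes were selected on this contrast. In bulk RNA, fewer expressing cells and less RNA per cell cannot be told apart.

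**Figure D1:**
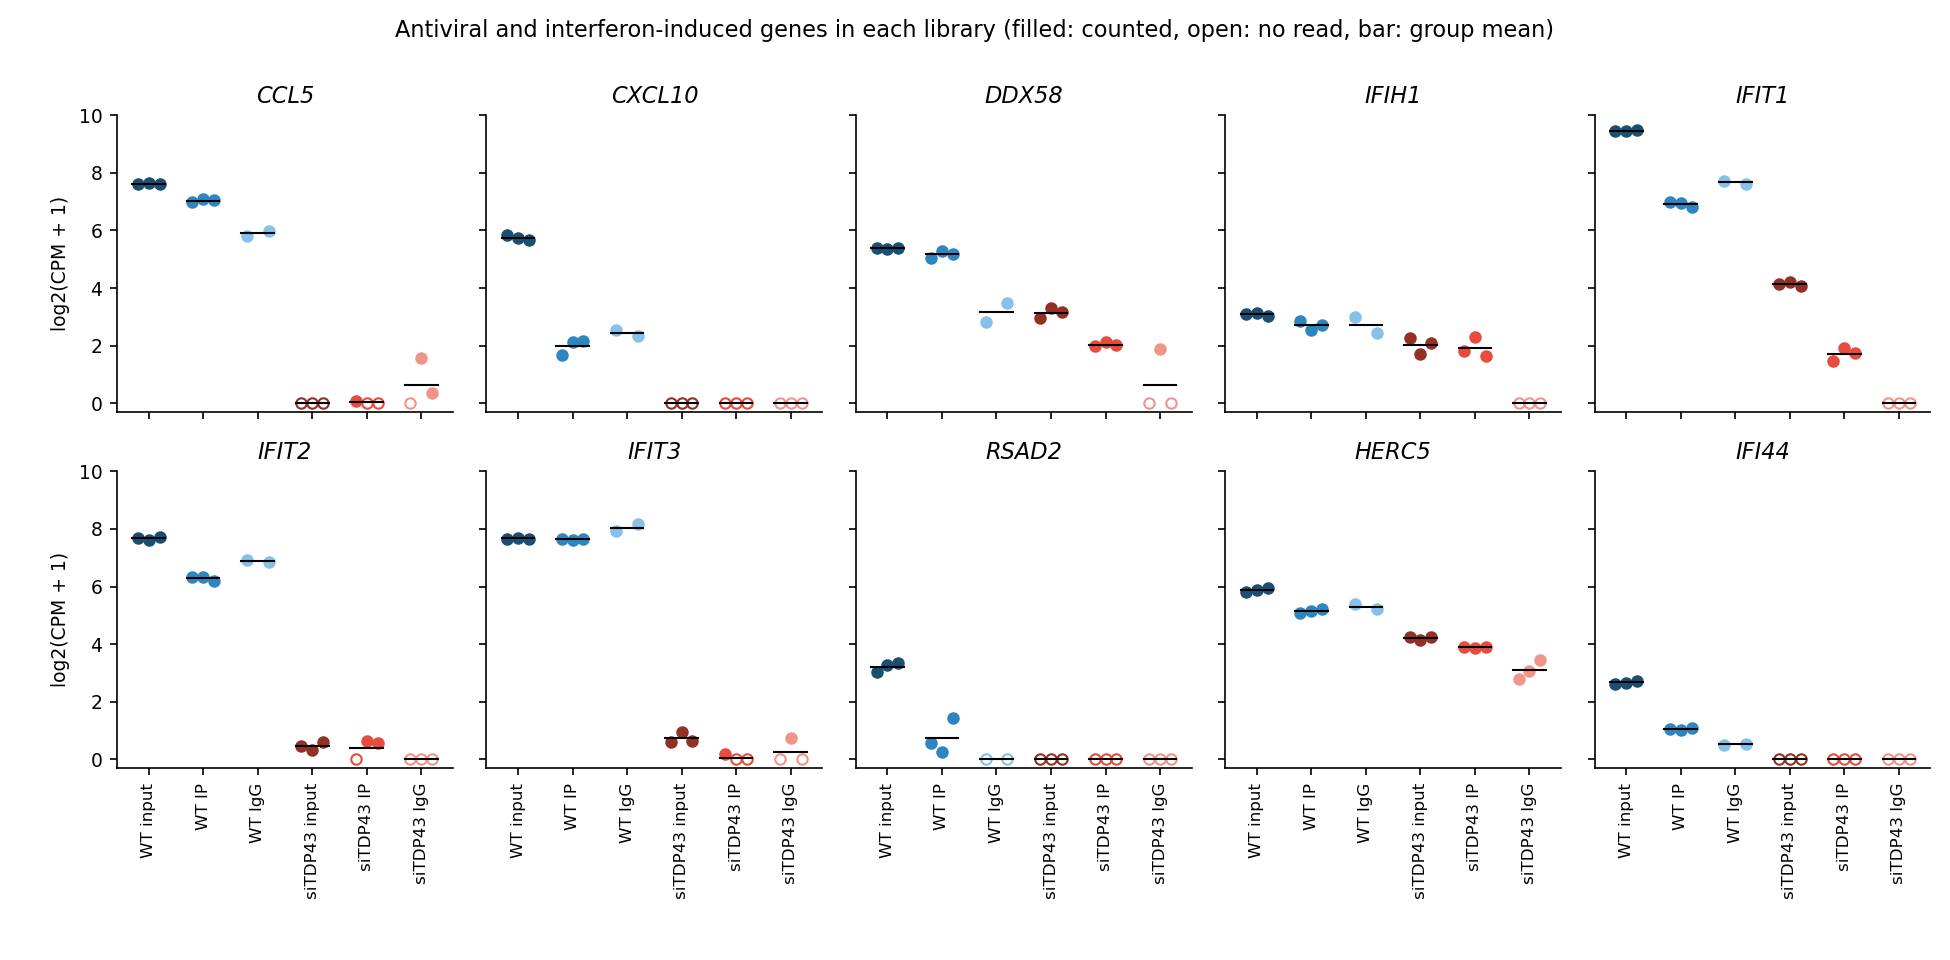
Level of each of the 10 genes in each of the 17 libraries, as log2(CPM + 1) on the vertical axis, with a column of points for each of the 6 groups, filled points for libraries with a count, open points for libraries with none, and a bar at the mean of the group. All 10 genes sit higher in WT input than in siTDP43 input, and CXCL10, RSAD2 and IFI44 have no count in any siTDP43 library.

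Between genes, levels were compared per length, as RPKM (CPM per kilobase of exon). In WT input the order was IFIT1 at 378 ± 7.19 RPKM (SD, n = 3), CCL5 at 159 ± 2.33, IFIT3 at 75.7 ± 1.05, IFIT2 at 58.2 ± 2.14, CXCL10 at 43.6 ± 2.7, HERC5 at 16.5 ± 0.788, DDX58 at 8.54 ± 0.144, IFI44 at 3.11 ± 0.112, RSAD2 at 2.38 ± 0.293 and IFIH1 at 2.20 ± 0.110. RSAD2 and IFIH1 overlapped, and no other neighbours in this order did. In siTDP43 input the order was IFIT1 at 8.96 ± 0.475 RPKM (n = 3), HERC5 at 4.99 ± 0.187, DDX58 at 1.67 ± 0.232, IFIH1 at 0.907 ± 0.221, IFIT3 at 0.251 ± 0.0851 and IFIT2 at 0.108 ± 0.0367, with CCL5, CXCL10, RSAD2 and IFI44 at 0. CCL5 was thus second of the 10 in WT input and without a read in siTDP43 input, whereas HERC5 moved from sixth to second.

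The chemokines CCL5 and CXCL10 are secreted proteins that attract T cells and other leukocytes. CCL5 (hg19 chromosome 17, 34198496 to 34207377, minus strand, 3 exons in the table) had 5362, 7270 and 6302 counts in WT input and 0 in each siTDP43 input library. The WT mean of 195 ± 2.87 CPM (SD, n = 3) was at least 1797-fold higher, with the siTDP43 libraries set at their limit of 3 counts. CCL5 was one of the more abundant of the 10 genes, so its absence is the most tightly bounded.

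CXCL10 (chromosome 4, 76942269 to 76944689, minus strand, 4 exons) had 1571, 1899 and 1635 counts in WT input and none in the 9 siTDP43 libraries. Its 53.0 ± 3.29 CPM (n = 3) in WT input was at least 487-fold higher. CCR1 and CCR3, receptors of CCL5, and CXCR3, the receptor of CXCL10, had no count in any of the 6 input libraries.

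DDX58 and IFIH1 encode RIG-I and MDA5, helicases that sense foreign RNA. DDX58 (chromosome 9, 32455300 to 32526322, minus strand, 18 exons) had 41.2, 39.9 and 40.7 CPM in the WT inputs and 6.77, 8.96 and 8.05 CPM in the siTDP43 inputs, a ratio of 5.12. IFIH1 (chromosome 2, 163123589 to 163175039, minus strand, 16 exons) had 7.65, 7.84 and 7.12 CPM in WT and 3.77, 2.28 and 3.25 CPM in siTDP43, a ratio of 2.43. Both sensors were thus still detected in every siTDP43 input library, and IFIH1 had the smallest ratio of the 10 genes.

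IFIT1, IFIT2 and IFIT3 encode tetratricopeptide repeat proteins that act together, IFIT1 by binding RNA whose 5′ end lacks the modifications of host mRNA. They lie side by side on chromosome 10, IFIT2 at 91061706 to 91069033 with 2 exons, IFIT3 at 91087602 to 91100725 with 4 exons and IFIT1 at 91152322 to 91163744 with 2 exons, all on the plus strand. IFIT1 was the most abundant of the 10, with 697, 694 and 719 CPM in the WT inputs and 16.6, 17.6 and 15.8 CPM in the siTDP43 inputs, a ratio of 42.2. IFIT2 had 207, 195 and 208 CPM in WT but 12, 6 and 14 counts in siTDP43, or 0.377 ± 0.128 CPM (SD, n = 3), a ratio of 539. IFIT3 had 202, 207 and 202 CPM in WT but 16, 23 and 16 counts in siTDP43, or 0.675 ± 0.229 CPM (n = 3), a ratio of 301.

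Of their neighbours in the same stretch of chromosome 10, given as values chosen for their position, IFIT5 and LIPA were higher in siTDP43 input than in WT input. IFIT5, the next gene past IFIT1 and another member of the family, had 14.4 CPM in WT input and 34.5 CPM in siTDP43 input (log2 change 1.35, edgeR adjusted p 9e-16, groups not overlapping). LIPA, a lysosomal lipase gene on the other side of IFIT2, had 110 CPM in WT input and 221 CPM in siTDP43 input. IFIT1B, between IFIT3 and IFIT1, was close to 0 throughout and lower in siTDP43, at 0.232 and 0.0215 CPM.

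RSAD2 encodes viperin, a radical SAM enzyme that makes a chain-terminating nucleotide. RSAD2 (chromosome 2, 7017796 to 7038363, plus strand, 6 exons) had 199, 320 and 296 counts in WT input and none in any siTDP43 library, so that WT input was at least 76.8-fold higher. HERC5 (chromosome 4, 89378268 to 89427314, plus strand, 23 exons), the main ligase that attaches ISG15 to proteins, had 55.2, 58.4 and 60.8 CPM in WT and 17.9, 16.8 and 18.0 CPM in siTDP43, a ratio of 3.31. IFI44 (chromosome 1, 79115477 to 79129763, plus strand, 9 exons), an interferon-induced protein of less well known function, had 144, 195 and 181 counts in WT input and none in any siTDP43 library, so that WT input was at least 49.4-fold higher. No exon of the 10 genes overlapped an exon of another gene in the table.

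**Figure D2:**
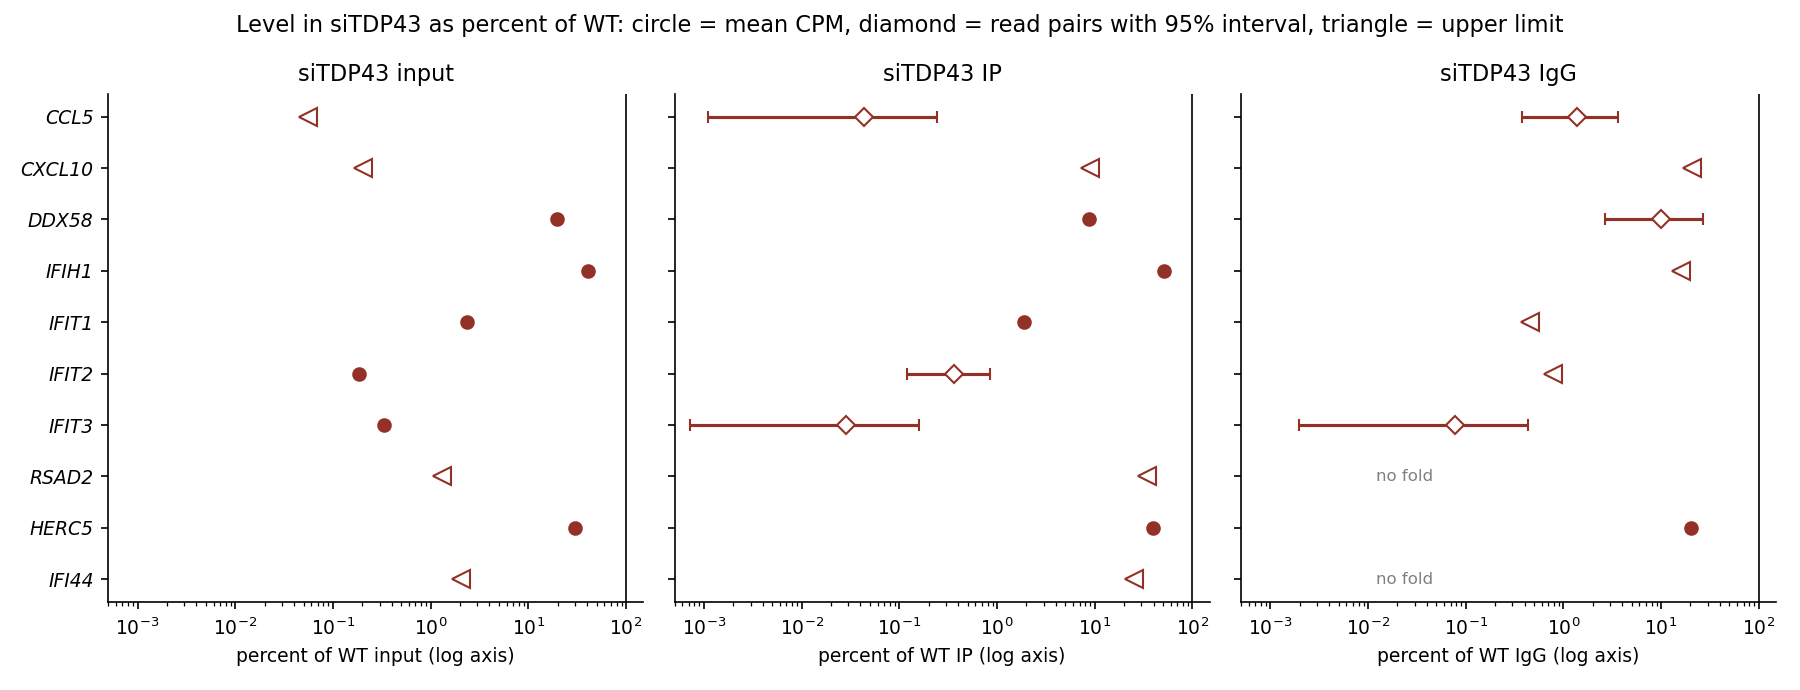
Level in siTDP43 as a percentage of WT on a log axis, for input, IP and IgG, with circles for ratios of mean CPM, diamonds for pooled read pairs with their exact 95% counting interval, and triangles for upper limits where no siTDP43 library held a count. In input the genes run from under 0.1% for CCL5 to 41.2% for IFIH1, and no fold is given for RSAD2 and IFI44 in IgG.

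The pull-downs, which took no part in choosing the genes, gave the same genotypes a second reading, although they were made from RNA of the same cells. All tests below are edgeR quasi-likelihood tests over all genes that passed a filter on low counts, with Benjamini-Hochberg adjustment. Nothing in the labels says that the libraries of a group came from separate cultures, so the p-values measure the spread between these libraries, which may be technical. Between the IP groups, 9 of the 10 genes passed the filter, most of them through their WT counts alone, and 8 were lower in siTDP43 at an adjusted p under 0.05, against 46.5% of all 13731 genes tested. A gene counted in WT IP only had to come out lower, so the count of 8 is a description. Among the genes counted in all 6 IP libraries, DDX58 had 32.2, 38.2 and 35.7 CPM in WT IP and 2.99, 3.32 and 3.02 CPM in siTDP43 IP (log2 change -3.14, SE 0.17, edgeR adjusted p 2.02e-12). IFIT1 went from 125, 123 and 112 CPM to 1.78, 2.77 and 2.32 CPM (log2 change -5.38, SE 0.14, adjusted p 4.69e-17). HERC5 went from 32.6, 34.7 and 36.6 CPM to 14.0, 13.5 and 13.9 CPM (log2 change -0.96, SE 0.12, adjusted p 9.11e-07).

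IFIH1 was the exception, with 6.32, 4.84 and 5.51 CPM in WT IP and 2.54, 3.87 and 2.09 CPM in siTDP43 IP. The groups did not overlap, but the log2 change of -0.59 (SE 0.29) had an edgeR adjusted p of 0.0668. With scaling by total count the change was -0.96 (adjusted p 0.00539), and the median of all genes moved from -0.23 to -0.60, so the call depends on the scaling. It was also made without siTDP43 IP replicate 2 (log2 change -0.85, adjusted p 0.0173).

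The remaining genes were at or near 0 in siTDP43 IP. CCL5 had 2547, 2830 and 2571 counts in WT IP and 1, 0 and 0 in siTDP43 IP, a ratio of 2296 (exact 95% counting interval on read pairs 412 to 90698). IFIT3 had 4086, 4148 and 3925 counts against 2, 0 and 0, a ratio of 3511 (630.0 to 138717). IFIT2 had 1615, 1692 and 1429 counts against 0, 6 and 4, a ratio of 274 (117 to 844). CXCL10, at 3.02 ± 0.733 CPM (SD, n = 3) in WT IP, was at least 11.1-fold higher there than in siTDP43 IP, IFI44 was at least 3.99-fold higher, and RSAD2, which was under the filter, at least 2.90-fold higher, or 1.26-fold without WT IP replicate 3.

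Between the IgG groups 8 genes passed the filter and all 8 were lower in siTDP43, against 45.1% of all 10790 genes tested, again mostly through WT counts alone. RSAD2 had no count in any IgG library and IFI44 had 4 and 4 counts in WT IgG, too few for a fold at the depth of siTDP43 IgG. HERC5 was the only one of the 10 counted in all 5 IgG libraries, with 40.6 and 36.1 CPM in WT and 5.97, 7.30 and 9.89 CPM in siTDP43 (log2 change -1.85, SE 0.28, edgeR adjusted p 1.8e-05). IFIT1 in WT IgG was at least 219-fold higher, IFIT2 at least 127-fold, IFIH1 at least 6.19-fold and CXCL10 at least 4.80-fold. The counts of CCL5 in siTDP43 IgG were 0, 6 and 1, those of DDX58 0, 8 and 0 and those of IFIT3 0, 2 and 0. All reads of DDX58 and IFIT3, and 6 of the 7 of CCL5, thus came from siTDP43 IgG replicate 2. The call of DDX58 between the IgG groups (adjusted p 0.00551) was lost without WT IgG replicate 2 (adjusted p 0.144) and with DESeq2 (adjusted p 0.0569).

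Within WT cells, the IP was compared with IgG and with input to ask whether these mRNAs were enriched by the antibody against ac4C. The study calls a transcript ac4C(+) when IP exceeds both controls, and none of the 10 genes was more than 2-fold above both, against 15.6% of the 14751 genes tested (edgeR, adjusted p under 0.05 and fold change above 2 in both). No gene of the 10 was higher in IP than in input at an unadjusted p under 0.05 or with DESeq2. The comparisons with IgG and with input share the WT IP libraries. The WT input libraries took part in choosing the genes, which favours values under input, so the counts that use input are a description.

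Against IgG, 4 of the 10 genes were more than 2-fold higher in IP and none more than 2-fold lower, against 35.2% of all 14751 genes tested that were higher and 17.8% that were lower. In edgeR 5 were lower at an unadjusted p under 0.05, each by less than 2-fold. With DESeq2, 3 were more than 2-fold higher and none more than 2-fold lower. The median log2 change of the 10 was -0.22, beside 0.29 over all genes. DDX58 had 32.2, 38.2 and 35.7 CPM in IP and 6.13 and 10.2 CPM in IgG (log2 change 1.99, SE 0.16, edgeR adjusted p 8.68e-11), the highest of the 10 that was not a bound. CCL5 had 126, 134 and 131 CPM in IP and 54.6 and 62.6 CPM in IgG (log2 change 1.02, SE 0.077, adjusted p 1.98e-11), and fell under 2-fold without WT IgG replicate 1 (0.92). RSAD2 had 10, 4 and 33 counts in IP and none in IgG, a level at least 2.43-fold higher, or 1.05-fold without WT IP replicate 3, which held most of the reads. Its edgeR adjusted p of 0.00681 belongs to a fitted log2 change of 7.04 (SE 2.25). That change rests on the IgG counts of 0, so the p-value does not test the bound. With no count in IgG, RSAD2 could only come out higher, and its place among the 4 is a description. IFI44 had 22 counts in each IP library and 4 in each IgG library, a ratio of 2.50 (exact 95% counting interval 0.890 to 9.73), and its adjusted p of 0.0477 rose above 0.05 with DESeq2 (0.0527) and without any 1 of the 5 libraries (0.055 to 0.135).

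The IFIT genes went the other way, higher in IgG than in IP. IFIT1 had 125, 123 and 112 CPM in IP and 209 and 195 CPM in IgG (log2 change -0.88, SE 0.058, edgeR adjusted p 2.05e-12). IFIT2 was lower by a log2 change of -0.73 (adjusted p 8.53e-10) and IFIT3 by -0.53 (adjusted p 1.17e-07), in both cases without overlap of the groups. CXCL10 at -0.68 (adjusted p 0.0113) and HERC5 at -0.28 (adjusted p 0.016) were lower by less than 2-fold too, and the HERC5 groups overlapped. Without WT IgG replicate 1 neither passed (adjusted p 0.117 for CXCL10 and 0.139 for HERC5), and HERC5 did not pass without WT IP replicate 1 (0.0549), with total count scaling (0.176) or with 17 libraries in 1 fit (0.0753). IFIH1, at 5.56 and 5.70 CPM, had a log2 change of -0.17 (SE 0.24, adjusted p 0.519).

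**Figure D3:**
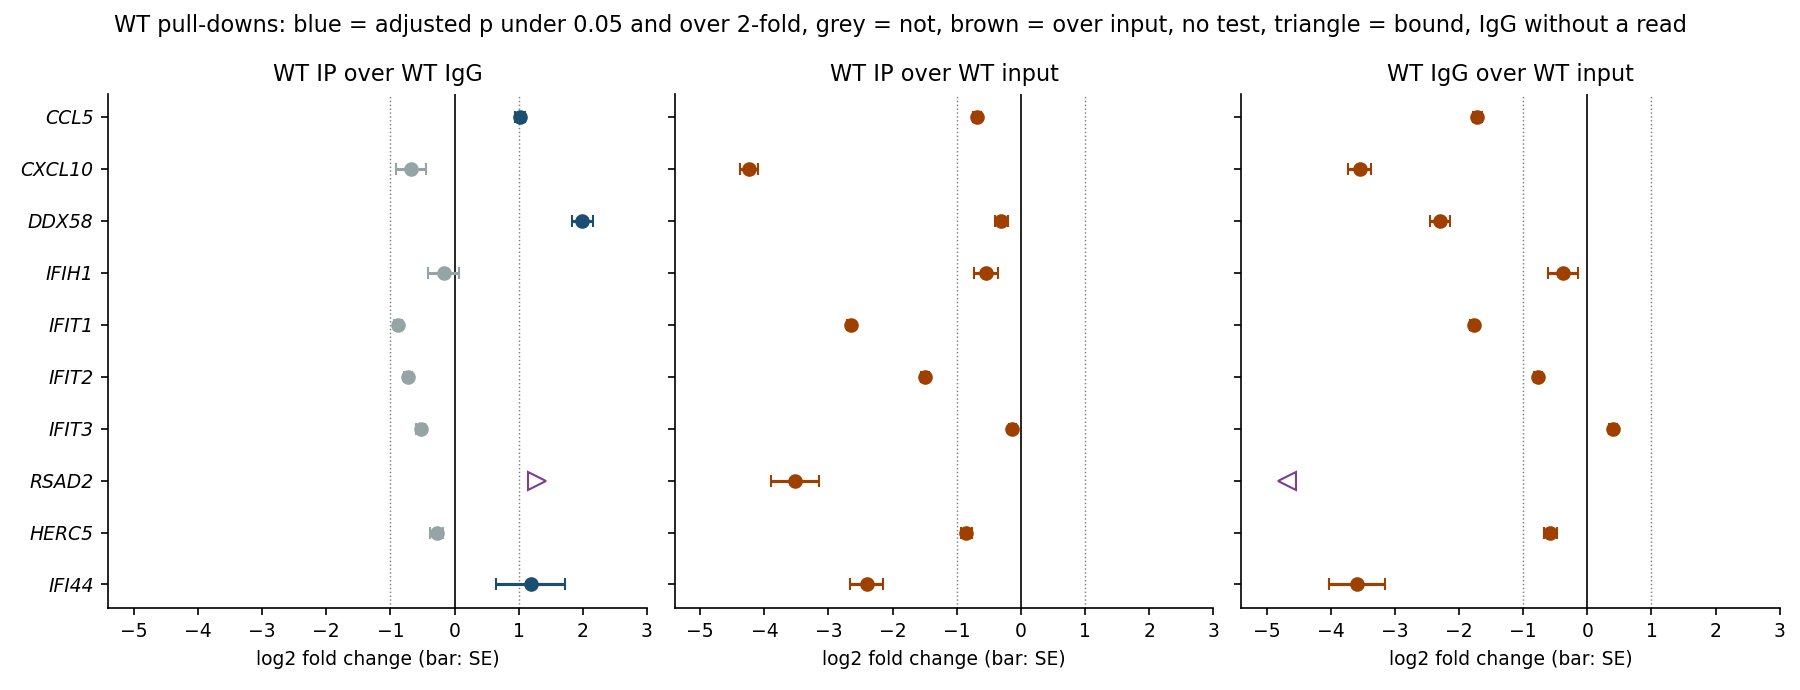
Log2 fold changes in WT cells of IP over IgG, IP over input and IgG over input for the 10 genes, from edgeR with bars for the standard error, blue points over IgG for an adjusted p under 0.05 and more than 2-fold, grey points over IgG for the others, brown points for values over input, which carry no test, dotted lines at 2-fold and open triangles for bounds where IgG held no read of RSAD2. DDX58 stands at 1.99 over IgG and -0.30 over input, and no gene lies to the right in both of the first panels.

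The values against input are given without a test. By fold alone, 5 of the 10 genes in IP lay over 2-fold under their input level, beside 27.7% of all 14751 genes. CXCL10 had the lowest value, with 56.7, 51.9 and 50.4 CPM in input and 2.17, 3.42 and 3.47 CPM in IP (edgeR log2 change -4.23, SE 0.14). RSAD2 followed at -3.52, IFIT1 at -2.65, IFI44 at -2.41 and IFIT2 at -1.49. HERC5 at -0.85, CCL5 at -0.69, IFIH1 at -0.55, DDX58 at -0.30 and IFIT3 at -0.13 lay within 2-fold of input, and with total count scaling DDX58 was at -0.20 and IFIT3 at -0.028. The IFIT genes thus differed among themselves, since IFIT3 held 200 CPM in IP against 203 in input, with overlapping groups, whereas IFIT1 held 120 against 703.

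The control pull-down gave values of the same kind. In IgG, 6 of the 10 genes were more than 2-fold lower than in input by fold alone, beside 39.5% of all 14751 genes, again without a test. RSAD2 was at least 25.7-fold lower, IFI44 had a log2 change of -3.59, CXCL10 -3.55, DDX58 -2.29, IFIT1 -1.77 and CCL5 -1.71. IFIT3 was the only one of the 10 with a value above input, at 241 and 285 CPM in IgG against 202 to 207 (log2 change 0.40, SE 0.065). CXCL10, IFIT1, RSAD2 and IFI44 were thus more than 2-fold under input in both pull-downs, DDX58 and CCL5 only in IgG and IFIT2 only in IP, and the test of IP against IgG given above is the test of those differences.

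Within siTDP43 cells only IFIT1, DDX58, IFIH1 and HERC5 passed the filter. Against IgG, 3 of these 4 were more than 2-fold higher in IP by the edgeR fit, beside 34.0% of all 12746 genes tested. IFIT1 and IFIH1 had no read in siTDP43 IgG and could only come out higher, so this count is a description. Against input, whose libraries took part in choosing the genes, 2 of the 4 were more than 2-fold lower by fold alone, beside 25.9%. IFIT1 had 28, 30 and 20 counts in IP and none in IgG, at least 2.49-fold higher, and IFIH1 had 40, 42 and 18 counts in IP and none in IgG, at least 3.08-fold higher. DDX58 had 47, 36 and 26 counts in IP and 0, 8 and 0 in IgG, a ratio of 3.83 (exact 95% counting interval 1.41 to 14.6), called at an adjusted p of 0.0302 but not without siTDP43 IgG replicate 1 (0.145), siTDP43 IgG replicate 3 (0.151) or siTDP43 IP replicate 2 (0.055). HERC5 had 14.0, 13.5 and 13.9 CPM in IP and 5.97, 7.30 and 9.89 CPM in IgG (log2 change 0.63, SE 0.23, adjusted p 0.0203, and 0.0962 without siTDP43 IgG replicate 1), under 2-fold. Against input, IFIT1 had a log2 change of -2.54 and DDX58 of -1.01, close to the 2-fold limit, while IFIH1 was at 0.21 and HERC5 at -0.01. In 1 edgeR fit of the 17 libraries, the change of IP over IgG was higher in siTDP43 than in WT for HERC5, IFIT1 and IFIH1, 3 of these 4, at an adjusted p under 0.05, against 34.9% of all 15165 genes tested, and 60.8% of all differed in either direction. The fitted changes of IFIT1 and IFIH1 rest on their counts of 0 in siTDP43 IgG, so their place in this count is a description.

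To place the 10 genes in their pathway, 112 other genes were set out in 6 lists and tested between the inputs, where 85 passed the filter. Of these, 24 were higher in siTDP43, against 38.6% of all genes tested, and 46 lower, against 40.6%. The lists were written with the input results known, so they serve as context and not as independent support. The 4 genes of each list with the highest RPKM over the inputs are named whatever their change.

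Of the sensing genes that act beside DDX58 and IFIH1, 5 of 13 tested were higher in siTDP43, 5 were lower and the median log2 change was -0.01, beside -0.05 over all genes. TBK1, the kinase that activates IRF3, had 22.0 CPM in WT and 54.7 CPM in siTDP43 (log2 change 1.40, edgeR adjusted p 1.19e-17). IRF3 had 46.9 and 56.9 CPM (0.37, adjusted p 8.24e-06) and EIF2AK2, the RNA-activated kinase PKR, 18.4 and 29.4 CPM (0.77, adjusted p 1.5e-09). RNF135, a ubiquitin ligase that acts on RIG-I, had 14.1 and 13.2 CPM (-0.01, adjusted p 0.964). The transcripts of the machinery upstream were thus not all lower with the 10 genes.

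Of the interferons, receptors and signalling genes, 6 of 17 tested were higher, 8 were lower and the median was 0.02. The receptor subunit IFNGR1 had 118 CPM in WT and 175 CPM in siTDP43 (0.66, edgeR adjusted p 1.78e-14) and IL10RB 37.6 and 47.7 CPM (0.44, adjusted p 1.17e-06), while IFNGR2, at 62.6 and 59.8 CPM, had an adjusted p of 0.689. USP18, which removes ISG15 and restrains the interferon receptor, had 34.1 and 46.5 CPM (0.53, adjusted p 1.13e-07). Chosen after its values were seen, IFNB1, the interferon-beta gene itself, had 154, 216 and 152 counts in WT input and none in siTDP43 input. It was at least 49.5-fold higher in WT, given without a test because only WT counts took it past the filter.

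Among other interferon-stimulated genes, 11 of 26 tested were higher, 13 were lower and the median was -0.38. ISG15, the ubiquitin-like protein that HERC5 attaches, had 340 CPM in WT and 6.51 CPM in siTDP43, a ratio of 52.2 (log2 change -5.60, edgeR adjusted p 1.11e-33). BST2, which tethers budding virus particles, had 204 and 1.19 CPM, a ratio of 170 (-7.31, adjusted p 1.52e-33). IFITM1, which blocks virus entry, had 92.7 and 43.1 CPM (-1.01, adjusted p 6.73e-16), and LGALS3BP 88.2 and 138 CPM (0.74, adjusted p 3.07e-14). The list was thus split, with members on both sides of the line of equal level. Further genes, chosen after their values were seen, showed how low some well known members were in WT itself, since MX1 had 2, 4 and 10 counts, OAS1 had 2, 6 and 2 counts and MX2 had none in WT input. PARP9 and DTX3L, adjacent partner genes, had 0, 4 and 2 counts and no counts in WT input but 4.93 and 3.36 CPM in siTDP43 input.

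Of the NF-kB targets and chemokines, 1 of 18 tested was higher and 13 were lower, with a median of -2.27. Beside this, 38.6% of all genes tested were higher and 40.6% lower. Some of the 13, CCL2 among them, had no count in siTDP43 input and passed the filter through WT alone. Such genes could only come out lower, so the count is a description. NFKBIA, the inhibitor that NF-kB induces, had 75.5 and 36.2 CPM (-0.97, edgeR adjusted p 1.47e-15) and NFKB2 9.31 and 1.76 CPM (-2.29, adjusted p 2.77e-12). CCL2, a monocyte attractant, had 127, 106 and 88 counts in WT and none in siTDP43, at least 31.2-fold higher in WT, given without a test. CXCL3, at 2.01 and 1.22 CPM, had an adjusted p of 0.0731 and overlapping groups. Of the antigen presentation genes 1 of 11 tested was higher and 7 were lower, with a median of -0.55. B2M had 1060 and 749 CPM (-0.41, adjusted p 1.05e-11), HLA-C 463 and 249 CPM (-0.80, adjusted p 5.71e-16), HLA-B 314 and 124 CPM (-1.25, adjusted p 1.78e-21) and the proteasome subunit gene PSMB10 42.1 and 35.9 CPM (-0.14, adjusted p 0.0621). HLA genes are close in sequence, so the counting of uniquely aligned reads could divide them unevenly.

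The genes whose pattern over the 17 libraries was most like the mean of the 10 were named by Pearson's r on log2(CPM + 1) over 12856 genes with a mean of at least 20 counts. They were HSPB8 (r = 0.988), EIF1 (0.987), OASL (0.985), FGF13 (0.985), DHRS2 (0.984) and SAT1 (0.979), while the 10 genes themselves ranged from 0.769 for RSAD2 to 0.982 for IFIT2. The points share genotype, library type and depth, so r is a description without a test. OASL, an antiviral relative of the oligoadenylate synthetases, had 132 ± 4.64 CPM (SD, n = 3) in WT input, 61.4 ± 1.74 CPM (SD, n = 3) in IP and 29.3 ± 2.90 CPM (SD, n = 2) in IgG, but 2, 2 and 4 counts in the siTDP43 inputs.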

How the data were processed

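The 17 acRIP-seq libraries of HEK293T poly(A) RNA were assigned to groups by their labels. Per the methods, libraries were made by Smart-seq2, an oligo(dT)-primed protocol with pre-amplification. Levels are relative within a library, as the spike-in with ac4C was not used. The authors trimmed reads (Trim Galore 0.6.7), aligned them to hg19 (STAR 2.7.10a) and deposited raw counts per gene of uniquely aligned reads (featureCounts 2.0.2). The annotation release, strand setting and handling of read pairs are not given in the sources used here. Between 81.3 and 95.9% of the counts from 1 to 20 were even, as if both mates were counted, and counting intervals were computed on halved counts.

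The 10 genes and the pathway lists were chosen with earlier results of these data known. The main test was the two-sided quasi-likelihood F test of edgeR 4.0.16 (R 4.3.3) after TMM normalization and filterByExpr (minimum count 10), with Benjamini-Hochberg adjustment over all genes tested. The 8 WT libraries were fitted together, as were the 9 siTDP43 libraries, and each comparison of genotypes used its own libraries. Calls needed an adjusted p under 0.05 and, within a genotype, a fold change above 2. CPM and RPKM use total counts, so ratios of mean CPM can differ from edgeR log2 changes. A group without a count was set at 3 counts per library and its fold given as a bound. For groups of at most 10 counts in all, the ratio is of pooled read pairs with an exact 95% interval. The 4 genes of each list with the highest RPKM over the inputs were named, and the 6 genes most like the mean of the 10 by Pearson's r. Values of some listed genes are not reported here, and the list counts include them. Alternatives were the Wald test of DESeq2 1.42.0, no filter, a mean of at least 50 counts, scaling in edgeR by DESeq2 size factors or by total count, 1 fit of all 17 libraries, the replicate number as a block, halved counts, a limit of 6 counts, and each library left out. The genotype difference of IP over IgG, the scalings of input levels and bounds with a library left out were added after seeing the data. Replicates differed by more than sampling noise (chi-square per degree of freedom 1.63 to 4.71 on halved counts, 16 pairs), so none was a copy of another. Whether libraries were made from the same RNA sample is not told by this value. The fits were tested on simulated data.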

Additional observations from a re-analysis of the deposited data

Results flagged for a closer look

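Of the 10 genes, 3 had a change of IP over IgG that differed between WT and siTDP43, tested as an interaction over all genes in 1 edgeR fit of the 17 libraries, which was added after seeing the data. Only 4 of the 10 had enough counts in siTDP43 for a value, and 60.8% of all 15165 genes tested differed in this fit, 34.9% in the direction of the 3 genes, so the count says nothing particular about them. HERC5 had IP under IgG in WT (log2 change -0.28) and above it in siTDP43 (0.63), and the difference was 0.96 (SE 0.24, edgeR adjusted p 0.000649). It was 0.80 to 1.19 with each of the 11 pull-down libraries left out and 0.73 with DESeq2 size factors (adjusted p 0.00765). IFIT1 and IFIH1 had no read in siTDP43 IgG. Their differences are bounds at 3 counts, of at least 2.06 on the log2 scale for IFIT1 and at least 1.66 for IFIH1. The fit called both (edgeR adjusted p 4.87e-09 for IFIT1 and 2.35e-05 for IFIH1). Those p-values belong to fitted changes of 9.42 and 9.06, which rest on the counts of 0, and do not test the bounds. DDX58, the fourth of the genes that could be tested, had a difference of -0.22 (SE 0.77, adjusted p 0.95). The siTDP43 IgG libraries were the shallowest of the series, at 3013989 to 3436811 counts, and the part of depth in these differences was not tested.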

How the results depend on the processing

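Of 138 recomputed counts and main values, 129 stayed on the same side of their threshold or within 1.5 times, and 9 moved. Of 759 recomputed values of single genes, 716 stayed the same (within a genotype, on the same side of an adjusted p of 0.05 and 2-fold together), 23 lost their call, 2 gained one, 10 moved and 8 reversed. The count of genes higher in WT IP than in WT IgG, 4, was 2 to 3 with 1 library left out, and 2 without WT IgG replicate 1. The count lower in siTDP43 IgG than in WT IgG, 8, was 5 of 5 tested with a mean of at least 50 counts, where fewer genes were tested. The count lower in siTDP43 IP than in siTDP43 input, 2, was 1 with a mean of at least 50 counts, 1 with halved counts, 1 with the replicate block and 1 to 2 with a library left out, since DDX58 lies close to 2-fold. IFI44 in WT IP over WT IgG also lost its call without a filter (adjusted p 0.0627), with 17 libraries in 1 fit (0.0946), with the replicate block (0.0857) and with halved counts (0.127).

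Reversals were all of values that passed no threshold. IFIH1 in WT IP over WT IgG ran from -0.45 to 0.19 with a library left out, the highest being without WT IgG replicate 1. IFIH1 in siTDP43 IP over input was -0.13 with total count scaling and -0.065 to 0.39 with a library left out. HERC5 in siTDP43 IP over input was 0.076 with a mean of at least 50 counts, 0.0048 with halved counts and -0.051 to 0.015 with a library left out. The cause was not tested. Total count scaling moved the median of all genes by over 0.1 in several comparisons, most in siTDP43 IgG over WT IgG, from -0.31 to -0.76. With a limit of 6 counts, the limit if both mates were counted, the bounds in input became 899-fold for CCL5, 244-fold for CXCL10, 38.4-fold for RSAD2 and 24.7-fold for IFI44. The bounds in the pull-downs would fall too, and are not given here at that limit. Of 15 bounds, 2 moved by over 1.5 times with a library left out, both of RSAD2 without WT IP replicate 3.

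Same-numbered libraries did not deviate together (24 correlations of -0.021 to 0.026), so the numbers were not taken as pairs, and with the replicate block the counts were 3, 5, 6, 8, 8, 3 and 1 in the order IP over IgG, IP over input and IgG over input in WT, siTDP43 over WT in IP and in IgG, and IP over IgG and IP over input in siTDP43. Depth limits what can be said of siTDP43 IgG, where the limit set for a count of 0 reaches 0.995 CPM.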
